A study of Mus musculus with 2 samples.

Results

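The luminal endothelial cells of the aortic arch were selected on the RNA of 2 genes, Vwf and Vcam1, and 273 of the 8155 cells kept in the series met the rule. The cells came from Apoe-/- mice, which lack apolipoprotein E and are a standard model of atherosclerosis, all male, on the C57BL/6 background and 16 weeks old. One group (ND) was kept on chow, and the other (HFD) was fed a diet rich in fat and cholesterol from weaning. For each diet the arches of 2 mice were pooled before the cells were loaded, so each diet was 1 droplet library, with no replicate, and every difference between diets compares 2 libraries. There were 188 of these cells in the ND library of 5416 kept cells and 85 in the HFD library of 2739. Because both groups lacked Apoe, neither shows a vessel with a normal lipoprotein clearance.

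A cell was chosen by the following conditions on its unique molecular identifiers (UMIs, the counted RNA molecules). It held at least 1 UMI each of Pecam1 and Cdh5, an adhesion molecule and a cadherin of endothelial junctions. It also held at least 5 UMIs of Vwf and Vcam1 together and more of these than of Gpihbp1, the capillary anchor of lipoprotein lipase. It held no UMI of Ptprc, the pan-leukocyte phosphatase CD45, and fewer than 0.2% of its UMIs came from the macrophage complement genes C1qa, C1qb and C1qc. At most 2 of the fibroblast genes Dcn, Col1a1, Col1a2, Col3a1 and Lum were detected, and at most 1 of the lymphatic genes Mmrn1, Prox1 and Reln. The cells positive for Pecam1 and Cdh5 (double-positive cells in the plots) that passed the same exclusions but missed the Vwf and Vcam1 condition, 1856 in ND and 1097 in HFD, are called the other endothelial cells below. Most of them, 1439 in ND and 965 in HFD, were capillary cells with at least 5 UMIs of Gpihbp1 and more of it than of Vwf and Vcam1 together. Arteriolar cells, with 2 or more of Stc1, Hey1 and Sema3g, numbered 351 and 278, and their own levels are not given here. A ratio to the other endothelial cells therefore cannot tell a luminal trait from one shared with arterioles. Since Vwf and Vcam1 chose the cells, the levels of both genes and of all genes that go with them are given as a description, without a test.

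The endothelium of a large artery is a single sheet facing the blood. It keeps the blood fluid, senses the shear of the flow, forms the inner elastic layer together with the smooth muscle beneath it, and admits leukocytes when it is inflamed. Von Willebrand factor, encoded by Vwf, is the adhesive protein that tethers platelets and is stored in endothelial granules, and VCAM-1 is the cell surface ligand on which monocytes and lymphocytes come to rest in lesion-prone regions of arteries. Capillary endothelium, which a digest of the whole arch also releases from the fat and the adventitia around the vessel, carries instead the machinery for taking up fatty acids.

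The luminal cells held 1456134 UMIs in ND and 718605 in HFD. Their median UMI count was 5847 in ND (1976 to 48226) and 6634 in HFD (2688 to 41344), against 3736 and 5319 in the other endothelial cells. The median share of mitochondrial UMIs was 11.7% in ND and 18.1% in HFD, and it was also higher in HFD among all kept cells (16.8% and 21.9%). Of the kept cells, 1 barcode sequence occurred in both libraries, and it was a luminal cell of the HFD library. Doublets were not removed. Scrublet's own threshold marked 0 cells in ND and 1 in HFD and so did not work here, and among the 6% of cells with the highest scores were 19 of the ND luminal cells (10.1%) and 4 of the HFD ones (4.71%). Levels are given below as CPM, the UMIs of a gene summed over a group of cells per 1000000 UMIs of that group, with the exact 95% Poisson interval. These intervals, and those of ratios and shares, cover counting error only.

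Luminal cells made up 7.82% of the 2405 Pecam1- and Cdh5-positive cells of the ND library (exact binomial 95% interval 6.78 to 8.96) and 5.87% of the 1447 of the HFD library (4.72 to 7.21). As a share of all kept cells the values were 3.47% and 3.10%. The number of cells a digest releases cannot be told apart from the number in the vessel, and with 1 library for each diet the shares were not tested. Vwf and Vcam1 together ranged from 5 to 137 UMIs a cell in ND (median 16) and from 5 to 248 in HFD (median 15). At the edge of the rule, the 5 ND cells and 6 HFD cells with 4 UMIs held Cytl1 at 799 and 3185 CPM and Cd36 at 1638 and 1694 CPM. The 7 ND cells and 7 HFD cells with 5 UMIs held Cytl1 at 5130 and 2367 CPM and Cd36 at 525 and 387 CPM.

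**Figure D1:**
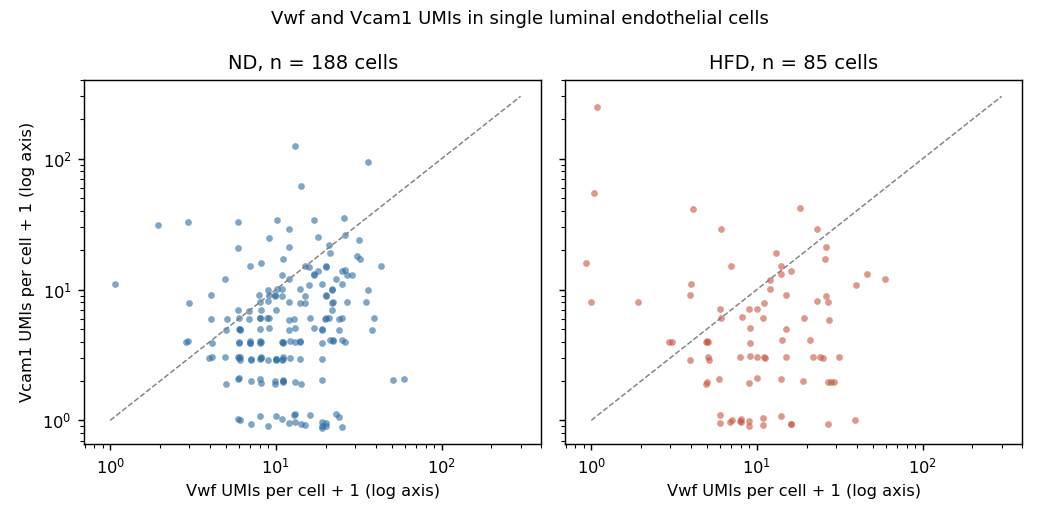
UMIs of Vwf (x axis) and Vcam1 (y axis) in each luminal cell, plus 1, on log axes with a small jitter, blue for ND and red for HFD; the dashed line marks equal counts. Most cells lie on the Vwf side of the line, and 30 ND and 17 HFD cells lie on the Vcam1 side.

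The label of aortic luminal endothelium was set beside 6 markers, of which Vwf and Vcam1 belong to the rule. The markers were chosen with earlier results of these data known, so their levels describe the label and do not test it. Vwf (chromosome 6, 125546774 to 125686679, mm10) stood at 1717 CPM in ND (1650 to 1786) and 1511 in HFD (1423 to 1604), against 27.1 and 10.9 CPM in the other endothelial cells. Vcam1 (chromosome 3, 116109949 to 116129688) stood at 1030 CPM (979 to 1084) and 1105 CPM (1029 to 1185), against 7.74 and 9.56. A single HFD cell held 248 of the 794 Vcam1 UMIs of that library. The 4 markers outside the rule were high as well. Cytl1, a small secreted cytokine-like protein (chromosome 5, 37735519 to 37739820), stood at 5502 CPM in ND (5382 to 5624) and 3569 CPM in HFD (3433 to 3710), against 24.1 and 25.2 CPM in the other endothelial cells. Clu, the secreted chaperone clusterin (chromosome 14, 65968483 to 65981547), stood at 2250 CPM (2173 to 2328) in ND and 3439 CPM in HFD, against 44.4 and 55.7. Bmp4, a bone morphogenetic protein (chromosome 14, 46383520 to 46390669), stood at 900 CPM (852 to 950) and 437 CPM, against 13.0 and 10.0. Gja5, the arterial gap junction protein connexin 40 (chromosome 3, 96904693 to 97077416), stood at 506 CPM (470 to 544) and 468 CPM, against 11.99 and 6.83, and no fibroblast of either library held a UMI of it. These 4 markers were thus far above the other endothelial cells in both libraries, by log2 ratios from 5.40 to 7.84 in ND and from 5.45 to 7.15 in HFD. The high ratios of Vwf and Vcam1 follow from the rule.

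Cytl1 marked nearly every luminal cell. It was detected in 96.3% of the ND and 85.9% of the HFD cells, and in 94.2% and 81.2% after each cell was thinned to 1500 UMIs so that depth was equal. Among the other endothelial cells 2.05% and 1.73% held a UMI of Cytl1 without thinning. Among fibroblasts, also not thinned and at median depths of 3882.5 and 4539 UMIs, 5.57% and 1.22% did. Cytl1 and Clu were also present cell by cell in the plot of single cells, where the median ND cell held 55.1 and the median HFD cell 35.2 Cytl1 UMIs per 10000.

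**Figure D2:**
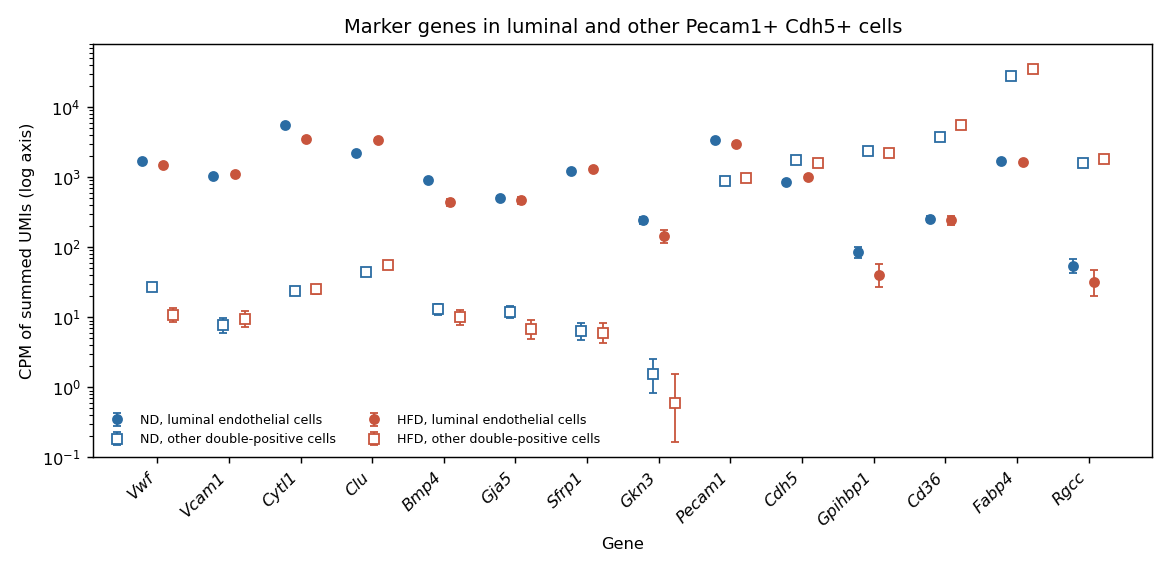
CPM (log axis) of marker genes in luminal cells (filled circles) and in the other endothelial cells (open squares), blue for ND and red for HFD, with exact 95% Poisson intervals. The 6 markers and Sfrp1 and Gkn3 lie far above the other endothelial cells, while Gpihbp1, Cd36, Fabp4 and Rgcc lie far below.

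General endothelial genes were present in the luminal cells without a common direction. Pecam1 was higher than in the other endothelial cells, at 3399 CPM against 871 in ND and 3024 against 991 in HFD. Cdh5 was lower, at 859 against 1789 CPM in ND and 1006 against 1617 in HFD, and Cldn5, the main claudin of endothelial tight junctions, was lower as well, at 490 against 3052 and 605 against 2909 CPM. Nos3, the endothelial nitric oxide synthase, was higher at 264 against 106 CPM and 355 against 120 CPM. Emcn, a sialomucin of the endothelial surface, stood at 358 CPM against 348 in ND, a difference of little size.

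Over the whole table, 6434 genes had at least 40 UMIs in luminal cells and enough counts for a ratio in both libraries. Of these, 974 (15.1%) were at least 2-fold higher in luminal cells than in the other endothelial cells in both libraries, and 332 (5.16%) at least 2-fold lower. The median log2 ratio over all tested genes was 0.15 in ND and 0.28 in HFD. Scaling by the median of ratios over genes in place of total UMIs would shift every log2 ratio of this comparison by −0.16 in ND and −0.30 in HFD. The contrast is the one the rule made, so the shares describe the gate and were not tested.

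**Figure D3:**
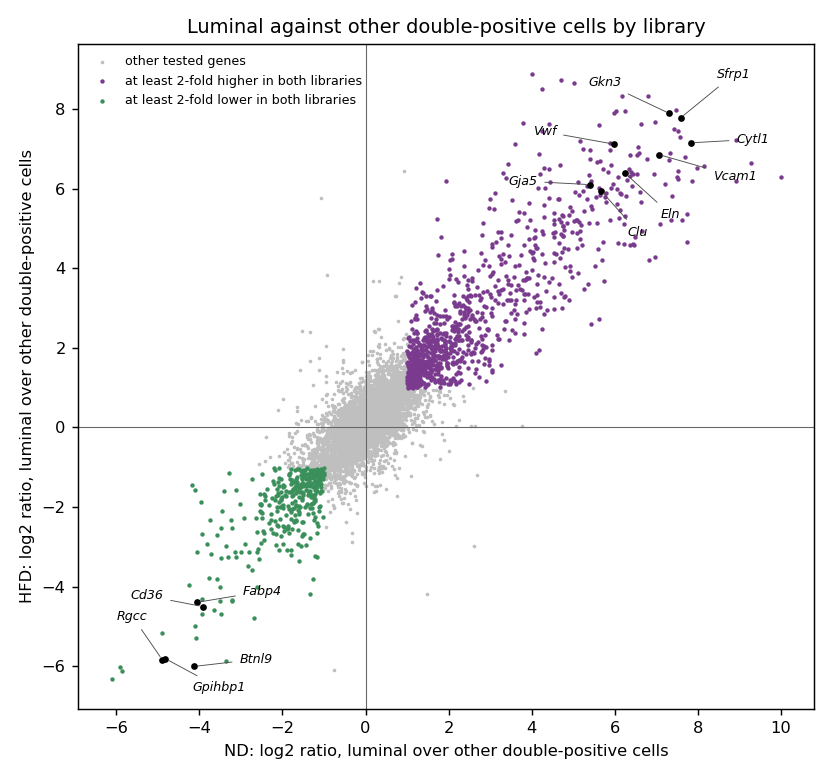
Log2 ratio of luminal to other endothelial cells for each tested gene, in the ND library (x axis) and the HFD library (y axis); purple points are at least 2-fold higher and green points at least 2-fold lower in both libraries. The 974 higher genes extend to log2 ratios near those of Cytl1, and the 332 lower ones hold the haemoglobin and fatty acid genes.

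Secreted regulators of Wnt and growth factor signals led the genes higher in luminal cells. Sfrp1, a secreted Wnt antagonist (chromosome 8, 23411502 to 23449632), stood at 1213 CPM in ND (1157 to 1271) and 1329 CPM in HFD, against 6.32 and 6.07 in the other endothelial cells. Frzb, another Wnt antagonist of the same family, stood at 158 CPM against 0.327 in ND, and in HFD it had 49 UMIs in the 85 luminal cells and 0 in the 1097 others. Sulf1 and Sulf2, the sulfatases that trim heparan sulfate at the cell surface, stood at 486 and 271 CPM in ND and at 505 and 345 CPM in HFD, against at most 6.00 CPM. Gxylt2, a xylosyltransferase that adds sugars to Notch repeats, stood at 846 and 498 CPM against 4.80 and 1.97. Smoc1, a matricellular protein that binds BMP signals, stood at 396 and 276 CPM against 2.29 and 1.52. None of these genes took part in the rule, but they were measured in the same cells.

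Further genes were higher in the luminal cells than in the other, mostly capillary, endothelial cells of both libraries. Gkn3, a gastrokine known from arterial endothelium (chromosome 6, 87383256 to 87388935), stood at 243 CPM (218 to 270) and 143 CPM against 1.53 and 0.607 in the other endothelial cells. It was found in 46.8% and 47.1% of the luminal cells, or 20.2% and 10.6% after thinning. Without thinning, 0.539% and 0.365% of the other endothelial cells held a Gkn3 UMI. Cyp1b1, a cytochrome P450 known to respond to shear, stood at 320 and 213 CPM against 1.74 and 1.21. Enpp6, a choline phosphodiesterase, stood at 157 and 145 CPM against 0.981 and 1.21, and Tmem158, a membrane protein, at 900 and 562 CPM against 13.4 and 7.13. The luminal level was above the other endothelial level for each of them in each library.

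Of the haemostasis list, 8 of 12 tested genes were higher in luminal cells and none lower, with median log2 ratios of 1.53 in ND and 1.51 in HFD. Besides Vwf, a gene of the rule that also enters the medians, they included Procr, Tfpi, F2r, Entpd1, Ptgis and Mmrn2. Procr, the endothelial protein C receptor, stood at 252 CPM in ND and 264 in HFD, against 13.1 and 9.10 in the other endothelial cells. Ptgis, the prostacyclin synthase, stood at 224 and 191 CPM against 1.42 and 1.82. F2r, the thrombin receptor PAR1, stood at 275 and 216 CPM against 88.0 and 47.5. Entpd1, the ectonucleotidase CD39 that breaks down ADP, stood at 61.8 and 75.2 CPM against 21.0 and 31.1. Genes that restrain clotting, receive thrombin and bind platelets were thus among the higher ones.

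Of the list of leukocyte adhesion and recruitment, 7 of 11 tested genes were higher and 1 lower in luminal cells, with medians of 1.46 and 1.94. The higher genes and the medians include Vcam1, a gene of the rule. Selp, the granule selectin on which leukocytes roll, stood at 218 CPM in ND (195 to 244) and 448 in HFD, against 2.29 and 3.79. Cd9, a tetraspanin, stood at 808 and 895 CPM against 147 and 90.2, and Cx3cl1, the membrane-bound chemokine fractalkine, at 86.5 and 82.1 CPM against 31.4 and 21.4. Icam1, the integrin ligand, stood at 397 and 363 CPM against 204 and 188, just short of 2-fold in both libraries. Cxcl12, the ligand of CXCR4, was the lower gene, at 167 and 264 CPM against 554 and 1066.

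Of the matrix list, 10 of 17 tested genes were higher and 3 lower in luminal cells, with medians of 2.61 and 2.72, above those of the other lists of function. Eln, tropoelastin (chromosome 5, 134702593 to 134747323), stood at 2110 CPM in ND and 4649 in HFD, against 27.8 and 55.7 in the other endothelial cells. Bgn, the proteoglycan biglycan, stood at 3532 CPM (3436 to 3630) and 2965 CPM against 41.8 and 44.0. Ltbp4, which holds latent TGF-beta in the matrix, stood at 2502 and 2064 CPM against 302 and 492. Fbln2 and Fbln5, fibulins of elastic fibres, Mgp, Fn1, Col8a1, Col18a1 and Vim were the other higher genes. The lower ones were the capillary basement membrane chains Col4a1 and Col4a2 and Sparcl1, at 286, 139 and 61.8 CPM in ND against 1311, 814 and 940.

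Of the arterial and Notch list, 5 of 16 tested genes were higher and 4 lower. Hey2, a Notch target of arteries, stood at 150 CPM in ND and 139 in HFD, against 1.64 and 1.21 in the other endothelial cells, and Gja4, connexin 37, at 503 and 296 CPM against 11.01 and 17.9. Bmx, a kinase of arterial endothelium, stood at 362 and 220 CPM against 3.81 and 1.67, and Jag1, a Notch ligand, at 98.9 and 110 CPM against 28.7 and 32.0. Hey1, Hes1, Sox17 and Unc5b were the lower ones, Sox17 at 146 and 182 CPM against 419 and 622. Arterial genes therefore split within the list. The comparison is mostly with capillary cells, so it does not separate luminal from arteriolar endothelium. Sema3g, a semaphorin that helps to mark arteriolar cells, stood at 54.2 and 87.7 CPM in luminal cells against 155 and 157, under 2-fold in HFD. Of the flow-responsive list, 7 of 15 tested genes were higher (Nos3, Klk10, Cyp1b1, Edn1, Bmp4, Ctgf and Ass1) and 2 lower (Plpp3 and Gch1). Klk10, a kallikrein-related peptidase, stood at 63.2 and 96.0 CPM against 0.763 and 1.21, and Edn1, the vasoconstrictor endothelin 1, at 1054 and 835 CPM against 28.6 and 34.6.

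Genes of lipid uptake were lower in luminal cells. Of 11 tested members of that list, none was higher and 8 were lower, with medians of −3.50 and −4.35. The lower genes and the medians include Gpihbp1, which the rule itself held below Vwf and Vcam1. Fabp4, the fatty acid-binding protein, stood at 1679 CPM in ND and 1675 in HFD, against 27730 and 35090 in the other endothelial cells. Cd36, the fatty acid and oxidised lipoprotein receptor, stood at 251 and 245 CPM against 3795 and 5530. Mgll, monoglyceride lipase, stood at 87.2 and 82.1 CPM against 988 and 1676, and Scarb1, the HDL receptor, at 24.7 and 23.7 CPM against 350 and 181. Rbp7, a retinoid-binding protein of capillary endothelium, stood at 27.5 CPM in ND against 814, and Rgcc, a capillary gene outside this list, at 54.3 CPM against 1613. The haemoglobin gene Hbb-bs, which marks red cells, was lower as well, at 61.8 and 316 CPM against 3566 and 21790, so the other endothelial cells carried more erythroid RNA and most of all in HFD. Immediate early genes (0 of 13 higher, 6 lower) and heat shock genes (0 of 8 higher, 4 lower) were on the lower side too. The part of erythroid RNA or of the dissociation in these values was not tested.

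The remaining lists held fewer differences. Of the TGF-beta and BMP list, 3 of 14 genes were higher (Tgfb2, Bmp4 and Bmp6) and none lower. Of the junction list, 4 of 13 were higher (Pecam1, Ocln, Gja4 and Gja5) and 2 lower (Cldn5 and Gja1). Of the NF-kappaB list, none of 10 was higher and 3 were lower (Irf1, Socs3 and Cebpb). Of the circadian clock list, 5 of 10 were higher (Nr1d1, Nr1d2, Per3, Cry2 and Tef) and 1 lower (Per1). Of the venous list, 1 of 4 was higher (Selp) and 1 lower (Nrp2). None of the 13 tested glycolysis genes, the 4 of sterol synthesis and uptake or the 2 endocardial ones passed 2-fold in both libraries.

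Between the diets, 6438 genes could be compared in luminal cells. Of these, 154 (2.39%) were at least 2-fold higher in HFD and 305 (4.74%) at least 2-fold lower, and the median log2 ratio of HFD to ND was −0.04. Among the 154 higher genes, 46 were more abundant in the cells of the series outside the endothelial gate than in luminal cells in both libraries, 7 had the larger part of their UMIs in 1 cell, and 126 remained past 2-fold when the cell with the most UMIs of the gene was left out of each library. Among the 305 lower genes these numbers were 70, 4 and 298. Leaving out 1 cell takes a larger share of the 85 HFD cells than of the 188 ND cells. This tends to lower the ratios of HFD to ND, so the 126 and the 298 cannot be compared as equal checks. In the other endothelial cells, 19 of the 154 and 72 of the 305 were past 2-fold in the same direction, and 70 and 62 had the opposite sign. A difference between 2 libraries of pooled mice has no replicate check, so none of these genes can be called changed by the diet.

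MHC class II genes were lower in the luminal cells of the HFD library. Of the 19 genes of antigen presentation and interferon, 5 were lower, among them H2-Aa, H2-Ab1, H2-Eb1 and Cd74, and 1 higher (Irf7), with a median of −0.03 against −0.65 for the same genes in the other endothelial cells. Cd74, the invariant chain that guides class II molecules through the cell, stood at 2329 CPM in ND (2251 to 2408) and 601 CPM in HFD (546 to 661), a log2 ratio of −1.95 (−2.10 to −1.81). The ratio of Cd74 in the other endothelial cells was −0.21, from 87.3 and 75.7 CPM, and outside the endothelial gate it was 0.46. The median ND luminal cell held 12 Cd74 UMIs and the median HFD cell 1. A Cd74 UMI was found in 89.4% of ND and 54.1% of HFD luminal cells, or 79.8% and 30.6% after thinning. Without thinning, 9.59% and 11.9% of fibroblasts held one. H2-Aa, an alpha chain of class II, stood at 728 CPM (685 to 773) and 245 CPM, a log2 ratio of −1.57 (−1.81 to −1.34), and H2-Eb1, a beta chain, at 641 and 235 CPM (−1.45). H2-Ab1, the beta chain that pairs with the product of H2-Aa, stood at 517 and 224 CPM (−1.21). For B2m, the light chain of class I, the log2 ratio was −0.53 in luminal and −0.65 in other endothelial cells.

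Of 15 flow-responsive genes, 3 were lower in HFD (Bmp4, Ctgf and Cyr61) and none higher, with a median of −0.46 against 0.12 for the same genes in the other endothelial cells. Cyr61, a matricellular protein induced by stretch and by YAP (chromosome 3, 145646976 to 145649981), stood at 1178 CPM in ND (1123 to 1235) and 335 CPM in HFD (294 to 380), a log2 ratio of −1.81 (−2.01 to −1.62). The ratio of Cyr61 was −0.66 in the other endothelial cells and −1.25 outside the gate. Ctgf, its close relative (chromosome 10, 24595442 to 24598683), stood at 339 CPM (309 to 370) and 102 CPM (79.6 to 128), a ratio of −1.74, and in the other endothelial cells the ratio was −1.59. Amotl2, an angiomotin that binds YAP, was looked up after these values were seen and stood at 241 CPM (216 to 268) and 68.2 CPM (50.5 to 90.2), a ratio of −1.82 against 0.02 in the other endothelial cells. A Cyr61 UMI was found in 80.3% and 56.5% of luminal cells, or 61.2% and 28.2% after thinning, and 46.6% and 36.1% of the other endothelial cells held one at that depth. Klf2, the transcription factor that laminar flow induces, stood at 2233 and 1410 CPM, a ratio of −0.66 that was −0.57 in the other endothelial cells, and Klf4, its relative, at 957 and 568 CPM, a ratio of −0.75 that was 0.12 there.

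The promoters of Cyr61 (Ccn1 in RefSeq) and Amotl2 and of H2-Aa and H2-Eb1 are shown because these genes were lower together; 4 of 6 genes looked up had an entry in the RefSeq table. Each line gives the 130 bases before the RefSeq start in GRCm38.p6, 5′ to 3′ on the strand of the gene. In the first pair capitals mark the TEAD motif GGAATG or its reverse complement CATTCC, the letters read by the DNA-binding partners of YAP. In the second pair they mark CCAAT or ATTGG, the Y box letters of class II promoters.
Ccn1 (Cyr61), chr3:145649986-145650115, minus strand: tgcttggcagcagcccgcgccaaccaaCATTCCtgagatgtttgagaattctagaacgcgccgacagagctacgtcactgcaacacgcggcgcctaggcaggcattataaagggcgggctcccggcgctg
Amotl2, chr9:102717674-102717803, plus strand: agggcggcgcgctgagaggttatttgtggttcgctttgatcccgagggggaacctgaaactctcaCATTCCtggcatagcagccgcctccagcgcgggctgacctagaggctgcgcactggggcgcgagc
H2-Aa, chr17:34287824-34287953, minus strand: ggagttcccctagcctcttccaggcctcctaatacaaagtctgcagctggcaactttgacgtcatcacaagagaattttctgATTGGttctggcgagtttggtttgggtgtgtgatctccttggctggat
H2-Eb1, chr17:34305737-34305866, plus strand: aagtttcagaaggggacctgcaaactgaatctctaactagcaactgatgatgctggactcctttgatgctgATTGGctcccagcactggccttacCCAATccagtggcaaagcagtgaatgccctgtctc

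CATTCC stood 103 bases before the start of Cyr61 and 65 before that of Amotl2, and the TEAD letters occurred on either strand in 6.41% of the windows of this length before 32851 mouse starts. ATTGG stood 48 bases before the start of H2-Aa and 59 before that of H2-Eb1, which also held CCAAT at 35, and the Y box letters occurred in 22.4% of windows. A match of letters is a description of the sequence and was not read as a bound site.

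Of 14 genes of the TGF-beta and BMP list, 3 were lower in HFD (Bmp4, Bmp6 and Smad6) and none higher, with a median of −0.45. Bmp4 stood at 900 CPM in ND and 437 in HFD, a log2 ratio of −1.04 (−1.23 to −0.86). Bmp6, another BMP ligand, stood at 793 and 360 CPM (−1.14). Smad6, the inhibitor that BMP signals induce, stood at 272 CPM (246 to 300) and 113 CPM (89.5 to 140), a ratio of −1.27 against 0.95 in the other endothelial cells. For Bmp6 that ratio was 0.06.

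Of 17 tested matrix genes, 6 were higher in the HFD library (Eln, Mgp, Col4a1, Col4a2, Col8a1 and Col18a1) and 1 lower (Sparcl1), with a median of 0.65 against 0.25 for the same genes in the other endothelial cells. Mgp, the matrix Gla protein that inhibits calcification (chromosome 6, 136872435 to 136875823), stood at 3410 CPM in ND (3316 to 3506) and 7239 CPM in HFD, a log2 ratio of 1.09 (1.03 to 1.14). The ratio of Mgp was 0.35 in the other endothelial cells and −1.48 outside the gate. Col8a1, a short-chain collagen of vessel walls, stood at 103 CPM (87.2 to 121) and 410 CPM (365 to 460), with an interval of the log2 ratio from 1.71 to 2.29 against a ratio of −0.59 in the other endothelial cells. A Col8a1 UMI was found in 21.8% of ND and 61.2% of HFD luminal cells, or 7.98% and 34.1% after thinning, and in 3.61% and 3.38% of the other endothelial cells at that depth. Col18a1, the source of endostatin, stood at 180 and 441 CPM (1.29), and Col4a2 at 139 and 369 CPM (1.40). Fn1, fibronectin, stood at 1173 and 1840 CPM (0.65).

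Eln had the same direction but an uneven source. It stood at 2110 CPM in ND and 4649 CPM in HFD, a log2 ratio of 1.14 (1.07 to 1.21), while the median cell held 18.7 Eln UMIs per 10000 in ND and 20.1 in HFD. The highest ND cell held 114 per 10000 and the highest HFD cell 386. At a limit of 80 per 10000, set after the cells were seen, 2 of 188 ND and 15 of 85 HFD cells were at or over it, and these 15 cells (17.6%) held 65.5% of the Eln UMIs of the HFD library. The other 70 HFD cells stood at 1950 CPM of Eln, close to the 2015 CPM of the 186 ND cells under the limit. The 15 cells also held more of other elastic fibre genes than the 70: Fbln5 stood at 4532 against 961 CPM, Lox, the crosslinking lysyl oxidase, at 442 against 137, and Mfap5, a microfibril protein, at 371 against 140. They held Pecam1 at 2906 against 3049 CPM, Cdh5 at 1066 against 993 CPM, Vwf at 2582 against 1282 CPM and Vcam1 at 347 against 1267 CPM. The smooth muscle genes Myh11 and Cnn1 were at 0 in both sets of HFD cells, and Acta2 stood at 86.9 CPM in the 15 cells against 394 in the 70. The fibroblast gene Col3a1 was higher in the 15 cells, at 474 against 35.5 CPM, and was found in 7 of the 15 and 13 of the 70. Col1a1 was at 0 in the 15 cells and at 1.69 CPM in the 70.

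**Figure D4:**
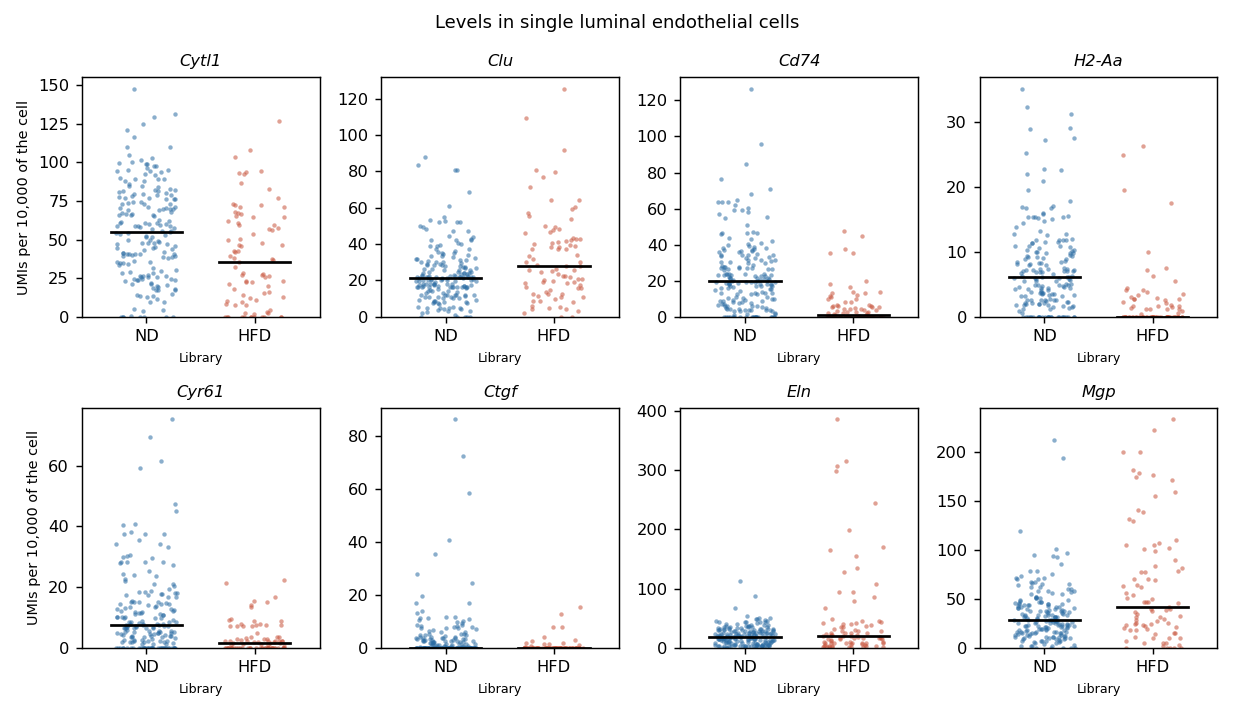
UMIs per 10000 of the cell for Cytl1, Clu, Cd74, H2-Aa, Cyr61, Ctgf, Eln and Mgp in each luminal cell, by library; the black line is the median. Cd74 and Cyr61 have lower medians in HFD (0.828 and 1.38) than in ND (19.8 and 7.41), and a tail of HFD cells stands above the others for Eln.

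Most adhesion genes were within 2-fold between the libraries. Of 11 adhesion genes 2 were higher in HFD and none lower. Selp stood at 218 and 448 CPM, a log2 ratio of 1.04 (0.81 to 1.26). It was found in 60.6% and 77.7% of luminal cells, or 26.6% and 41.2% after thinning. Without thinning, 0.808% and 1.46% of the other endothelial cells held a Selp UMI. Cxcl2, a neutrophil chemokine, stood at 83.8 and 188 CPM (1.17), but 1 HFD cell held 71 of its 135 UMIs, and the ratio was 0.33 without the highest cell of each library. Vcam1 had a ratio of 0.10 (−0.02 to 0.23) and Icam1 one of −0.13 (−0.34 to 0.09), both intervals reaching past 0. For Vcam1, 1 HFD cell held 248 of the 794 UMIs. The median luminal cell held 6.25 Vcam1 UMIs per 10000 in ND and 4.32 in HFD, opposite in direction to the summed ratio. For Vwf the ratio was −0.18.

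**Figure D5:**
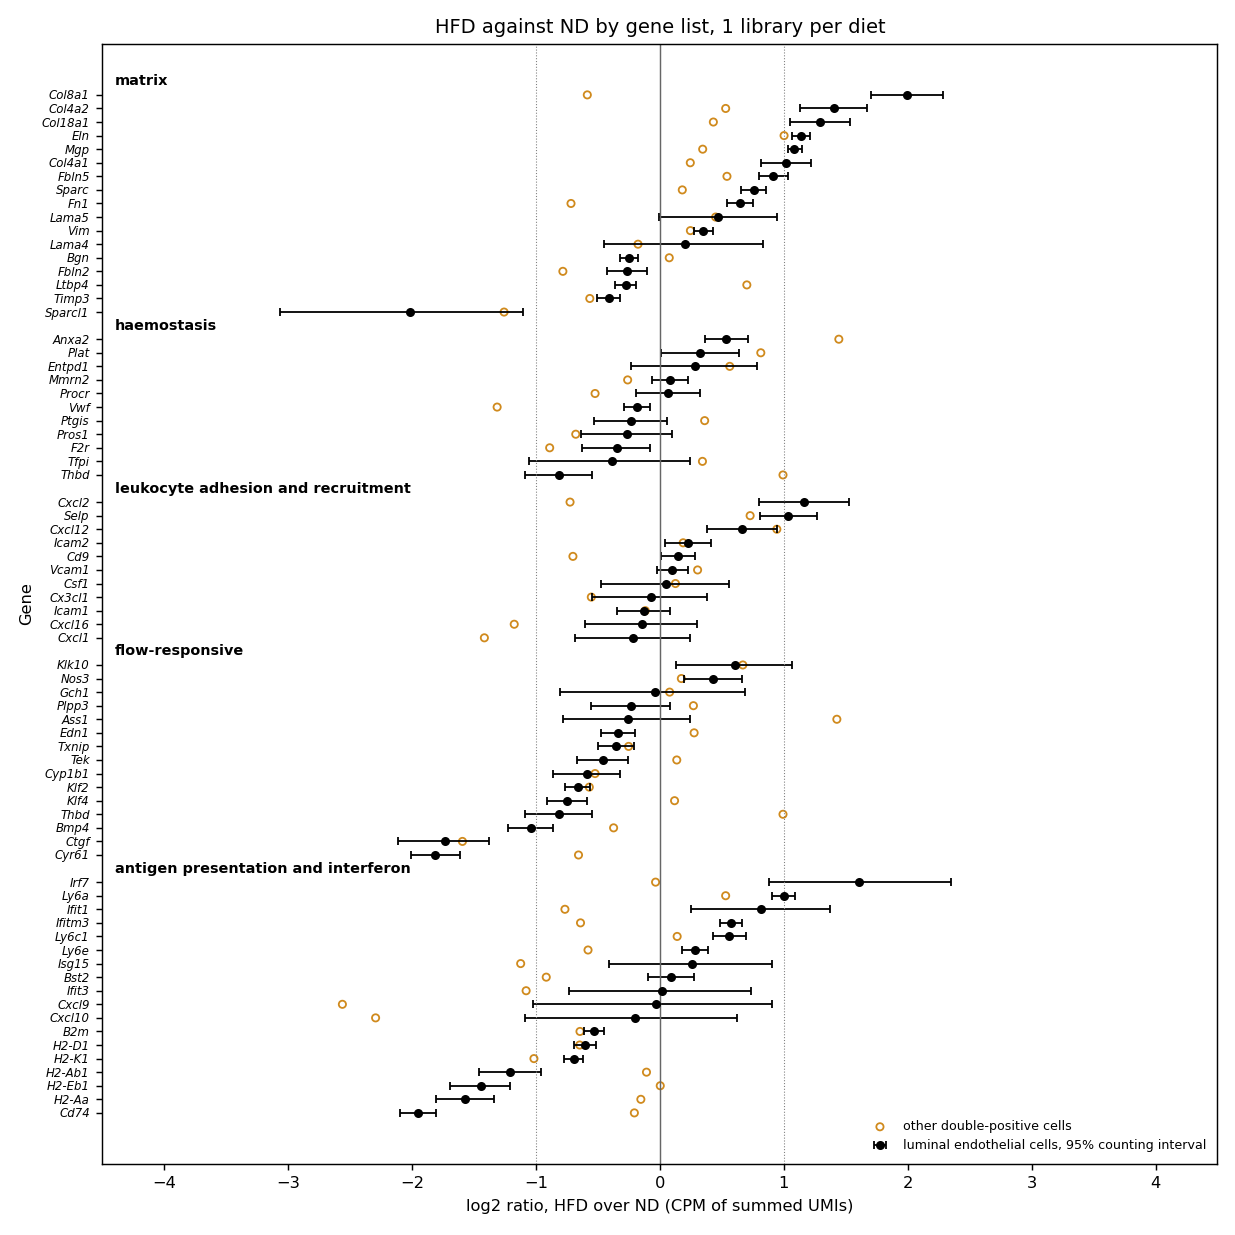
Log2 ratio of HFD to ND in luminal cells with 95% intervals for the genes shown of the matrix, haemostasis, adhesion, flow and antigen presentation lists; open orange circles give the same ratio in the other endothelial cells. Class II genes, Cyr61, Ctgf and Bmp4 lie below 0 and Eln, Mgp and Col8a1 above.

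Among the genes with the highest ratios of HFD to ND, several were near 0 in ND. Vcan, the proteoglycan versican, stood at 4.12 CPM in ND (1.51 to 8.97) and 91.8 in HFD (71.0 to 117), and was found in 4 of 188 and 22 of 85 luminal cells (2.13% and 25.9%, or 0.532% and 10.6% after thinning). Of the other endothelial cells 0.862% and 0.547% held a Vcan UMI without thinning. In fibroblasts, where Vcan was found in 43.4% and 49.3% of cells, the log2 ratio was −0.07. Dkk2, a Wnt antagonist, stood at 16.5 and 110 CPM (2.74), Mdk, the growth factor midkine, at 13.7 and 73.8 CPM (2.42), and Sox4, a transcription factor, at 50.1 and 221 CPM (2.14). Tubb3, a tubulin best known from neurons, stood at 15.8 and 89.1 CPM (2.50). Lcn2, the iron carrier lipocalin 2, stood at 13.1 and 107 CPM, a ratio of 3.04 that was −3.80 in the other endothelial cells, and the serpin Serpina3g stood at 12.4 and 71.0 CPM (2.52). Tmem252, a membrane protein, stood at 9.61 and 54.3 CPM (2.50). For Vcan, Dkk2, Mdk, Sox4 and Tubb3 the ratio in the other endothelial cells was below 0, from −0.20 for Tubb3 to −1.52 for Dkk2.

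Of the 10 tested clock genes 2 were higher in HFD and 2 lower, with a median of 0.25 against 0.05 for the same genes in the other endothelial cells. Dbp, an output gene of the circadian clock, stood at 3.43 CPM in ND and 62.6 in HFD luminal cells, a log2 ratio of 4.19. In the other endothelial cells Dbp stood at 3.05 and 4.85 CPM, a ratio of 0.67, and the ratio was 2.35 outside the gate and 3.52 in fibroblasts. Arntl, the core activator BMAL1, ran the other way at 38.5 and 4.17 CPM (−3.20), with ratios of −0.65 in the other endothelial cells and −1.78 outside. Nr1d2 stood at 37.1 and 82.1 CPM (1.15) and Clock at a ratio of −1.06. No source used here gives the hour at which the mice of each diet were sampled, and its part was not tested. Of the 13 immediate early genes 2 were lower, Dusp1 at 1203 and 482 CPM (−1.32 against −0.08 in the other endothelial cells) and Btg2 at −1.25, and of the 10 NF-kappaB genes Cebpb and Cebpd were lower, at −1.29 and −1.15.

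Of 16 arterial and Notch genes 1 was higher in HFD and 2 lower. Dll4, a Notch ligand, was higher at a log2 ratio of 1.24, from 21.3 CPM in ND. Hey1 and Unc5b were lower at −1.47 and −1.12, from 30.9 and 36.4 CPM. Of 4 tested venous genes 2 were higher, Selp (218 and 448 CPM) and Nr2f2. Nr2f2, the venous regulator COUP-TFII, was higher at 1.11 from 21.3 CPM, and its direction turned once cells were thinned, to −0.12. Of 11 lipid genes, Gpihbp1 and Lpl were lower, Gpihbp1 being a gene of the rule. The ratio of Lpl was −1.28, but it was 0.73 in thinned cells and 0.51 without the 9 Postn-positive ND cells described next. Pfkl of the 13 glycolysis genes was lower at −1.67 from 30.9 CPM, and none of the 13 junction, 8 heat shock or 4 sterol genes was past 2-fold.

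The lowest ratios of HFD to ND came mostly from a few ND cells. Postn, the matricellular protein periostin, had 219 UMIs in ND luminal cells, and 218 of them lay in 9 cells, found after the values were seen by holding 3 or more of Postn, Npr3, Prox1, Comp, Epha7 and H19. No HFD cell met that condition. These 9 cells, with a median of 18379 UMIs, held all 148 UMIs of H19, an imprinted non-coding RNA, 76 of 79 of Epha7, an ephrin receptor, and 63 of 67 of Prox1, a transcription factor of lymphatic and valve endothelium. They held 40 of 55 UMIs of Npr3, a natriuretic peptide receptor of the endocardium, and 53 of 65 of Hmcn1, a matrix protein. The lymphatic genes Ccl21a and Lyve1 were at 0 in them, while the rule itself kept out cells with Prox1 that also held Mmrn1 or Reln. Cytl1 stood at 2798 CPM, Vwf at 893, Vcam1 at 368 and Gja5 at 54.1 CPM in these cells, the last against 506 over all ND luminal cells. In HFD luminal cells H19, Epha7 and Comp had 0 UMIs. With 3 UMIs as the limit that a count of 0 allows, H19 had a log2 ratio of at most −4.61.

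Other genes low in HFD differed in how their ND UMIs were spread over cells. Rps6ka2, a kinase of the ERK pathway, stood at 88.6 CPM in ND (74.0 to 105) and 15.3 in HFD (7.64 to 27.4), a log2 ratio of −2.53, and its highest ND cell held 12 of 129 UMIs. Igfbp3, an IGF-binding protein, stood at 68.0 and 6.96 CPM, but 41 of its 99 ND UMIs lay in 1 cell. Ahsg, a protein of liver and plasma, stood at 222 and 23.7 CPM (−3.23), with 62 of its 323 ND UMIs in 1 cell.

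RNA of other cell types differed between the diets in the luminal cells. The macrophage markers summed to 44.6 CPM in ND and 348 in HFD luminal cells, with Lyz2, Tyrobp and Fcer1g past 2-fold, and 1 HFD cell held 38 of the 88 Lyz2 UMIs. Serpina3n, which stood higher outside the gate in HFD as well (2.23), was at 7.55 and 141 CPM, and Tgfbi, abundant in fibroblasts and macrophages, at 2.06 and 127 CPM. B cell markers summed to 383 CPM in ND and 13.9 in HFD, where Cd79a, Cd79b and Ms4a1 were at 0, and 1 ND cell held 344 of the 377 Igkc UMIs. For Ccl5, a chemokine of lymphocytes, 1 HFD cell held 139 of 142 UMIs. Airway club cell markers summed to 145 CPM in ND and 0 in HFD luminal cells and to 2202 and 0 in the other endothelial cells, led by Scgb1a1 at 98.9 CPM in ND luminal cells. Erythroid markers summed to 103 and 539 CPM, T cell markers to 21.98 and 2.78, fibroblast markers to 1113 and 750, smooth muscle markers to 470 and 607 with Myh11 and Cnn1 at 0 in HFD, and pericyte markers to 63.2 and 47.3 CPM. Adipocyte markers summed to 96.8 and 73.8 CPM, mesothelial ones to 37.1 and 9.74, cardiomyocyte ones to 8.24 and 8.35, lymphatic ones to 165 and 51.5, and capillary ones to 575 and 455. The part of these in the diet ratios was not tested.

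Within the luminal cells, Vcam1 exceeded Vwf in 30 ND and 17 HFD cells, called Vcam1-leaning, and Vwf equalled or exceeded Vcam1 in the other 158 and 68, called Vwf-leaning. These are the ends of a range, not types. Over 6436 genes, with Vwf and Vcam1 left out, 36 (0.559%) were at least 2-fold higher in Vcam1-leaning cells in both libraries and 96 (1.49%) at least 2-fold lower. Gbp2, an interferon-induced GTPase, stood at 418 CPM in Vcam1-leaning and 152 in Vwf-leaning cells of ND, and at 422 and 98.2 CPM in HFD, log2 ratios of 1.45 and 2.10. Ch25h, which makes 25-hydroxycholesterol, had ratios of 1.95 and 2.14, and Slc12a2, an ion cotransporter, of 2.27 and 1.87. On the Vwf-leaning side, Igfbp4, an IGF-binding protein, had ratios of −1.81 and −1.09, and Fbln5 of −0.90 and −1.47. Igfbp5, a relative of Igfbp4, had 4 UMIs in Vcam1-leaning cells of ND and 1 in those of HFD, against 231 and 172 in Vwf-leaning cells, ratios of −3.49 (−5.38 to −2.11) and −6.04 (−11.35 to −3.54). Igfbp5 was found in only 23 ND and 7 HFD luminal cells, so these ratios rest on few cells.

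The deepest cells weighed on that comparison. The 2 cells with the most UMIs of each library, left out after seeing the data, held 11.2% of the UMIs of Vcam1-leaning cells in ND and 35.1% in HFD. Without them Gbp2 had log2 ratios of 1.52 and 2.01. The HFD ratio of S100a4, a calcium-binding protein, went from 1.26 to 0.26, that of Cxcl12 from 1.41 to 0.36, and that of Lrg1, a glycoprotein acting on TGF-beta signals, from −1.07 to −0.45. That of Ch25h went from 2.14 to 1.47 and that of Fbln5 from −1.47 to −0.86, and Igfbp5 was left with 0 UMIs in the Vcam1-leaning HFD cells. The counts past 2-fold became 28 and 79.

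Across cells thinned to 1500 UMIs, which share a library and a depth, Spearman's rank correlation between Vwf and Vcam1 was −0.12 over 188 ND cells and −0.19 over 85 HFD cells. For Cytl1 and Clu it was 0.30 and 0.26, for Klf2 and Klf4 0.30 and 0.45, and for the immediate early genes Fos and Junb 0.34 and 0.42. The rule on the sum of Vwf and Vcam1 itself bears on the first of these values. The pair of Vcam1 and Icam1 gave 0.02 and 0.18. No p is given because cells of 1 library are not replicates.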

How the data were processed

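Suspensions of the arch from 2 mice per diet were pooled, run on a 10x Genomics droplet platform and sequenced. The authors counted UMIs with Cell Ranger (3.0.1 in the file headers) on mm10, and deposited whole-number UMI counts for 31053 genes and 24459 cells, with no normalization. The submitters' notes also name bcl2fastq, UMI-tools, Seurat 3.2.0 and R 4.0.0. Cells were kept here from 200 genes and 200 UMIs upwards and up to a mitochondrial share of 30%, 5416 in ND and 2739 in HFD, the counts the submitters give. The members and lists were chosen with earlier results of these data known.

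UMIs were summed per group of cells within a library. Ratios carry exact conditional binomial intervals, and those at 0 use a floor of 3 UMIs. Tested genes had at least 40 UMIs in luminal cells. Named genes were those of the rule and marker list, members of the fixed lists past 2-fold or best known, and the genes ranked highest or lowest by the interval bound nearest 0. Genes of a list that are near-identical copies, such as Hba-a1 and Hba-a2, may share reads. Groups are 1 library each, so no test between diets was possible. Doublets were scored with Scrublet in scanpy 1.11.5 and kept. Alternatives changed the UMI minimum, mitochondrial limit, doublets, haemoglobin, scaling, thinning and the gene minimum. The scripts ran on Python 3.11.15, and the ratio counts were checked on simulated data. Some genes of the lists are counted but not reported by name.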

Additional observations from a re-analysis of the deposited data

Results flagged for a closer look

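Cells over the mitochondrial limit of 30% were in no comparison. Of these, 7 of 2299 in the ND library and 17 of 7215 in the HFD library met the rest of the gate, which singled them out as signal in cells the report did not use. Their median UMI counts were 1989 and 3271, with median mitochondrial shares of 31.0% and 34.5%. With mitochondrial genes taken out of the total, the 17 HFD cells held Cytl1 at 7553 CPM, Clu at 3492, Cd74 at 341, Cyr61 at 85.2, Mgp at 4997 and Eln at 2016, against 4149, 3997, 699, 390, 8415 and 5405 in the HFD luminal cells. The 7 ND cells held Cytl1 at 5574, Clu at 4700, Cd74 at 1530, Cyr61 at 437, Mgp at 3716 and Eln at 3388 CPM. The ND luminal cells held 6102, 2495, 2583, 1306, 3781 and 2340. Over the limit, Clu and Eln were thus lower and Cytl1 higher in HFD than in ND, opposite to the luminal cells. Cd74, Cyr61 and Mgp had the same direction as there.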

How the results depend on the processing

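The share of luminal cells among Pecam1- and Cdh5-positive cells was 6.20% in ND (149 cells) and 4.22% in HFD (61) at a minimum of 10 UMIs, and 9.94% (162) and 8.83% (52) at a mitochondrial limit of 20%, and in the other 6 settings it moved less than its interval. Thinned to 1500 UMIs, the counts past 2-fold were 333 higher and 81 lower in luminal against other endothelial cells, 28 and 83 in HFD against ND and 10 and 31 in Vcam1-leaning cells. Fewer genes could be tested there, 1552, 1552 and 1550 against 6434, 6438 and 6436 in the main setting, so the counts are not on one base. At a minimum of 20 UMIs per gene the HFD counts were 336 and 545 and the leaning counts 62 and 153, and at 100 UMIs the 3 pairs of counts were 553 and 170, 53 and 117, and 14 and 15. Of the ratios of named genes between diets, 3097 of the recomputed values moved little, 347 moved further and 7 turned: Ccl5 to −2.49 and Ighm to 0.65 without the cells of highest doublet score, Ccl5 to −2.997 without the 2 deepest cells of each library, Postn to 2.82 and Lpl to 0.51 without the 9 Postn cells (both settings chosen after seeing the data), and Nr2f2 to −0.12 and Lpl to 0.73 when thinned. Thinning to 1500 UMIs weighed most on these ratios: 145 moved little, 114 moved further and 2 turned. Scaling by the median of ratios moved all 266 ratios little, as did leaving mitochondrial, haemoglobin and ribosomal genes out of the total. The 154 higher and 305 lower genes (33.6% higher) became 130 and 409 (24.1%) without each gene's highest cell, also chosen later. That setting takes a larger share of the HFD cells than of the ND cells and so tends to lower the ratios. Without the 9 Postn cells of ND the counts were 148 and 251 (37.1%), over 6104 tested genes. They were 181 and 268 (40.3%) without mitochondrial, haemoglobin and ribosomal genes. The rank correlation of Vwf and Gja5 in ND was 0.059 at 1000 UMIs. For Klf2 and Klf4 in HFD it was 0.20 and for Fos and Junb 0.19 at 1000 UMIs. Without thinning it was 0.44 for Cytl1 and Clu and 0.58 for Fos and Junb in ND, and 0.71 for Fos and Junb in HFD. The cause of these moves was not tested. No paired analysis was possible because each diet has 1 library. Depth limits single cells: the shallowest luminal cell held 1976 UMIs, and a gene at 0 in HFD could stand at up to 3 UMIs of 718605.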
